A study of Mus musculus with 24 samples.

Results

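Neutrophil genes of the mouse liver are described here: 10 of the 24411 genes counted in each library, namely S100a8, S100a9, Csf3r, Cxcr2, Ngp, Ltf, Camp, Mmp8, Mmp9 and Il1b. They were chosen by symbol as genes that neutrophils express, and their read counts were followed over 24 mouse liver libraries. The study asked how livers with a low hepatocyte ploidy respond to an overdose of acetaminophen (APAP), the analgesic that injures hepatocytes near the central vein. All mice were males of 2.5 months, fasted overnight for about 16 h. LKO mice carried floxed E2f7 and E2f8 alleles (loxP/loxP), the R26R-mTmG reporter and Alb-Cre Tg/0, which deletes E2f7 and E2f8 in hepatocytes and other albumin-expressing cells of the liver for life. Their controls, labelled WT, were littermates without Cre, and the background of this colony was mixed and predominantly FVB. HKO mice were floxed mice given AAV8-TBG-Cre at 2 months, a virus whose promoter limits Cre to hepatocytes, and their controls were floxed mice given AAV8-TBG-Null. At 0 h each library came from 1 fasted mouse without APAP, with 4 control and 4 LKO mice in the LKO cohort and 3 control and 3 HKO mice in the HKO cohort. The APAP libraries, taken 12, 24, 48, 72 or 96 h after a dose of 300 mg/kg, each held the pooled RNA of 3 mice, with 1 control and 1 LKO library at each time point. The spread between mice within a pool was therefore not measured, and LKO and HKO below name libraries by their labels.

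Neutrophils are short-lived granulocytes that leave the bone marrow under the control of granulocyte colony-stimulating factor and follow chemokines of the CXCL family into injured tissue. Their granule proteins are made in the marrow in order, with primary granule proteins first, specific granule proteins next and gelatinase granule proteins last, so a circulating neutrophil carries many granule proteins whose transcripts it has already lost. In the liver after APAP, neutrophils are known to enter the necrotic areas around central veins, where monocyte-derived macrophages follow and clear debris. In bulk liver RNA a smaller number of neutrophils and less RNA of a gene per neutrophil cannot be told apart.

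Sequence upstream of the start site is shown for the 4 members that met the rule for a call after APAP in the tests described further on, since these 4 moved in the same direction. The sequences are from RefSeq on GRCm38.p6, which held a promoter for 9 of the 10 members. They are written 5′ to 3′ on the strand of the gene, and capitals mark matches on either strand to GAGGAA, a core bound by PU.1 and other ETS factors, or to TTGCNNAA, a core bound by C/EBP factors. The stretches searched were the 250 bases before the RefSeq start site. GENCODE places the start of S100a8 and Csf3r farther upstream, so that the last 93 and 109 of these bases lie within the GENCODE gene, and only the 157 and 141 bases before it are printed. The printed stretches lie at chr3:90668821-90668977 on the plus strand for S100a8, chr3:90695722-90695971 on the minus strand for S100a9, chr4:126024409-126024549 on the plus strand for Csf3r and chr9:7558179-7558428 on the plus strand for Mmp8.
S100a8: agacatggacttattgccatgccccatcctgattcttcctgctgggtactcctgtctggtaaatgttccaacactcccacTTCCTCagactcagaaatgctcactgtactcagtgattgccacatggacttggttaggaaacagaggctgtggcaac
S100a9: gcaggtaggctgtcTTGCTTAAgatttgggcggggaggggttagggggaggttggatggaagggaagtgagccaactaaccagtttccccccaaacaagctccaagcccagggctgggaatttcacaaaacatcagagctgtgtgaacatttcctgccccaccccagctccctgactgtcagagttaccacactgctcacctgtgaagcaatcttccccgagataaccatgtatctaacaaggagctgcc
Csf3r: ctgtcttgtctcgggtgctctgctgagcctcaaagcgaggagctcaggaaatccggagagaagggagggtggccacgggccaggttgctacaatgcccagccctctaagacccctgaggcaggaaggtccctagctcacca
Mmp8: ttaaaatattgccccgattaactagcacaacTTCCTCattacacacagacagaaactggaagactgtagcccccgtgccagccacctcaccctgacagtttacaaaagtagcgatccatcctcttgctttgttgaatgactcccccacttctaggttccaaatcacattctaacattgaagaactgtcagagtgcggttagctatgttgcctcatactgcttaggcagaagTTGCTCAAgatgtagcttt

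Counted from the RefSeq start site, the stretch of S100a8 held GAGGAA at positions -170 and -36 on the minus strand of the gene, and that of Csf3r held it at -86. The matches at -36 and -86 lie within the genes as GENCODE has them and outside the printed bases. S100a9 held TTGCNNAA at -236, and Mmp8 held it at -19 together with GAGGAA at -219. Of the 9 members with a promoter, 4 held TTGCNNAA and 5 held GAGGAA, against 9.56% and 23.3% of 32851 mouse promoters of the same length. An NF-kB core motif and TGANTCA, an AP-1 core, were in 0 of the 9 and in 1.41% and 6.75% of all promoters. These are matches of letters only, and no factor was measured. On GRCm38, S100a8 (ENSMUSG00000056054.9, chr3:90668978-90670035) and S100a9 (ENSMUSG00000056071.12, chr3:90692632-90695721) are neighbours on opposite strands, and Ngp, Ltf, Camp and Mmp8 are on chromosome 9. Il1b (ENSMUSG00000027398.13, chr2:129364570-129371139) overlaps the antisense gene Il1bos, whose reads cannot be told apart from those of Il1b in counts that disregard strand.

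Reads on genes ranged from 12665686 to 19499897 over the 24 libraries, so that 3 reads correspond to 0.142 to 0.262 CPM (counts scaled to a common library size by TMM), the unit used below. All members were rare transcripts, and the largest count of any member in any library was 225 reads, for S100a9 in the control pool at 48 h. Among single mice, reads over the whole E2f8 gene came to 16.4 ± 3.28 CPM (SD, n = 4) for controls of the LKO cohort against 25.3 ± 7.11 CPM (SD, n = 4) for LKO, and to 19.4 ± 5.73 CPM (SD, n = 3) for controls of the HKO cohort against 54.6 ± 26.1 CPM (SD, n = 3) for HKO. E2f8 was thus not lower in the libraries labelled LKO or HKO. A whole-gene count cannot separate deleted from remaining exons, and reads per exon were not analysed here, so these counts do not check the labels, and each direction given between genotypes rests on the labels. Ly6g, a defining neutrophil surface marker, was not analysed here. Mpo and Elane, primary granule enzymes of neutrophil precursors, did not exceed 0.720 CPM in any of the 24 libraries. Retnlg, a gene of mature neutrophils, reached 5.45 CPM. The hepatocyte gene Alb was between 41510 and 83316 CPM in the 4 control mice of the LKO cohort at 0 h.

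S100a8 and S100a9 encode the subunits of calprotectin, a calcium- and zinc-binding protein that fills the cytosol of neutrophils and acts as an alarm signal once released. S100a8 was at 0.237, 0.502, 0.350 and 2.01 CPM in the 4 control mice at 0 h and at 2.02, 1.66, 0.175 and 0.381 CPM in the 4 LKO mice. In the control pools it was at 1.48, 2.73, 8.62, 7.32 and 1.49 CPM at 12, 24, 48, 72 and 96 h, and in the LKO pools at 1.56, 8.61, 2.95, 0.997 and 0.706 CPM. Both genotypes thus reached nearly the same maximum, in the control pool at 48 h and in the LKO pool at 24 h. S100a9 was at 0.769, 0.789, 0.962 and 3.54 CPM in control mice and at 2.44, 2.43, 0.408 and 1.31 CPM in LKO mice at 0 h. After APAP it was at 5.32, 5.401, 11.5, 7.25 and 3.89 CPM in the control pools and at 5.82, 11.3, 2.72, 1.76 and 0.434 CPM in the LKO pools. All 5 control pools lay above the 4 control mice at 0 h, while in LKO the pools at 12, 24 and 48 h lay above the 4 LKO mice. Control mouse 4 and LKO mice 1 and 2 were high for both genes at 0 h. Per kb of exon, the control pool at 48 h held 12.4 CPM of S100a8 and 22.0 CPM of S100a9.

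**Figure D1:**
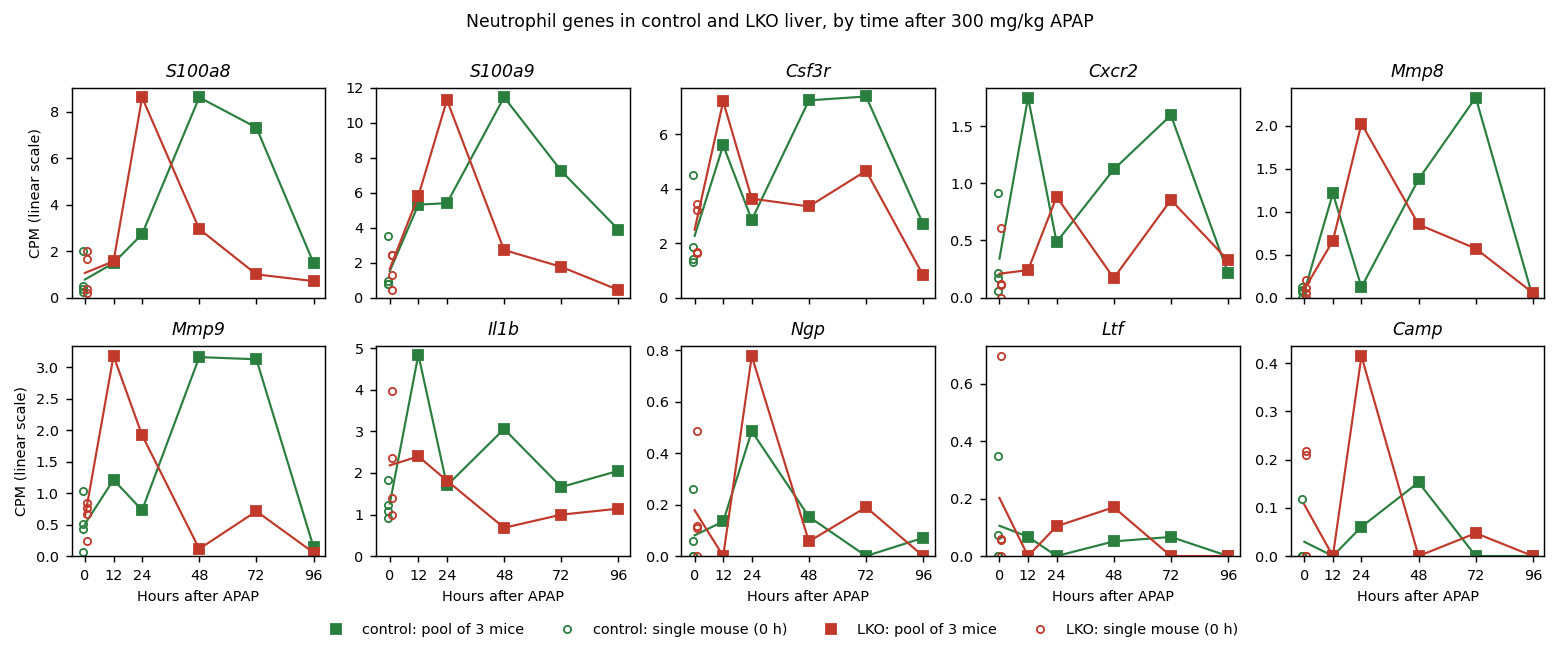
Level of each neutrophil gene in CPM (linear axis, a scale of its own for each panel) against hours after APAP in control (green) and LKO (red) liver; open circles are single mice at 0 h, squares are single pools of 3 mice, and lines join the 0 h mean to the pools. S100a8 peaks at 8.62 CPM at 48 h in control and at 8.61 CPM at 24 h in LKO.

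Csf3r encodes the receptor of granulocyte colony-stimulating factor, and Cxcr2 encodes the receptor for CXCL1, CXCL2 and related chemokines. Csf3r was at 1.42, 1.29, 1.84 and 4.51 CPM in control mice and at 3.21, 3.43, 1.63 and 1.69 CPM in LKO mice at 0 h. It was at 5.59, 2.85, 7.24, 7.38 and 2.69 CPM in the control pools and at 7.20, 3.63, 3.34, 4.65 and 0.815 CPM in the LKO pools in order of time. The highest LKO pool was that at 12 h, and the LKO pool at 96 h lay below all 8 mice at 0 h. Cxcr2 was lower in reads, with 0 to 15 reads in the 8 mice at 0 h and 3 to 26 reads in the pools. It was at 1.75, 0.486, 1.12, 1.60 and 0.212 CPM in the control pools and at 0.240, 0.882, 0.170, 0.854 and 0.326 CPM in the LKO pools. The control pools at 12, 48 and 72 h lay above all mice at 0 h, and no LKO pool exceeded the highest mouse, control mouse 4 at 0.914 CPM.

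Mmp8 encodes neutrophil collagenase, stored in specific granules, and Mmp9 encodes gelatinase B, stored in gelatinase granules and also made by macrophages. Mmp8 had 0 to 3 reads in each of the 8 mice at 0 h. It was at 1.21, 0.121, 1.38, 2.33 and 0 CPM in the control pools and at 0.660, 2.02, 0.850, 0.570 and 0.0543 CPM in the LKO pools. The pool at 24 h held 2 reads in control and 39 reads in LKO. Mmp9 was at 0.0591, 0.502, 0.437 and 1.04 CPM in control mice and at 0.836, 0.664, 0.233 and 0.762 CPM in LKO mice at 0 h. In the control pools it was at 1.21, 0.728, 3.16, 3.13 and 0.142 CPM, and in the LKO pools at 3.18, 1.92, 0.113, 0.712 and 0.0543 CPM. The LKO pools at 12 and 24 h and the control pools at 12, 48 and 72 h lay above all 8 mice at 0 h.

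Ngp, Ltf and Camp encode the specific granule proteins neutrophilic granule protein, lactoferrin and cathelicidin, which are made by neutrophil precursors in the marrow. None of the 3 passed the filter on low counts in any fit, so they were not tested. Ngp had 0 to 7 reads per mouse at 0 h in the LKO cohort and at most 8 reads in a control pool, and its highest count was 15 reads (0.778 CPM) in the LKO pool at 24 h. Camp had its highest count, 8 reads (0.415 CPM), in the same pool. Ltf was highest in LKO mouse 1 at 0 h, with 10 reads (0.697 CPM), and had 0 to 3 reads in each pool.

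Il1b encodes interleukin-1β, a cytokine made by neutrophils, monocytes and macrophages. It was at 1.83, 1.08, 1.22 and 0.914 CPM in control mice and at 2.37, 0.996, 1.40 and 3.98 CPM in LKO mice at 0 h. The control pools held 4.85, 1.70, 3.06, 1.66 and 2.05 CPM, and the LKO pools held 2.40, 1.82, 0.680, 0.997 and 1.14 CPM. No LKO pool exceeded the highest LKO mouse at 0 h. The control pools at 12, 48 and 96 h lay above all 4 control mice.

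To compare APAP time points with 0 h, both pools of a time point were tested against the 8 mice in 1 fit over the 18 libraries of the LKO cohort, with genotype as a covariate, by edgeR's quasi-likelihood test. A gene was called at a Benjamini-Hochberg adjusted p-value under 0.05 over all genes and a fold change of at least 1.5. Of the 10 members, 7 passed the filter on low counts, and Ngp, Ltf and Camp did not. Among the 7, S100a8, Cxcr2 and Mmp8 did not pass it over the 8 mice alone, so they entered with the pools, where they were higher, and the counts of calls are a description. At 12 h 3 of the 7 were called higher, where 16.7% of all 13855 genes were. These were S100a9 (1.82 on the log2 scale with a standard error of 0.66, adjusted p = 0.0420), Csf3r (1.43, 0.44, adjusted p = 0.0177) and Mmp8, which is described below. Mmp9 had a log2 fold change of 1.98 with an adjusted p of 0.0578. At 24 h 3 of 7 were called higher, where 13.9% of all genes were, namely Mmp8 and, with log2 fold changes of 2.67 and 2.49, S100a8 (adjusted p = 0.0115) and S100a9 (adjusted p = 0.00847). The same 3 genes were called higher at 48 h, where 9.89% of all genes were, with log2 fold changes of 2.57 for S100a8 (adjusted p = 0.0229) and 1.98 for S100a9 (adjusted p = 0.0479). Csf3r was at 1.11 (adjusted p = 0.0938) at 48 h.

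At 72 h 2 of 7 members were called higher, where 11% of all genes were, namely Mmp8 and Csf3r, the latter 1.30 higher on the log2 scale (standard error 0.44, adjusted p = 0.0480). S100a8 was at 2.04 (adjusted p = 0.0764) and Cxcr2 at 2.07 (adjusted p = 0.0863). At 96 h edgeR called 0 of 7 members, DESeq2 gave an adjusted p to 5 of them and called 0, 0 had an unadjusted p under 0.05 (15.4% of all genes had), and 0.332% of all genes were called higher. No member was called lower at any time point, where 14.3%, 11.7%, 6.52%, 5.77% and 0.13% of all genes were at 12, 24, 48, 72 and 96 h. Of the 4 members that also passed the filter over the mice alone (S100a9, Csf3r, Mmp9 and Il1b), 2, 1, 1, 1 and 0 were called higher at 12, 24, 48, 72 and 96 h. Mmp8 had 0 to 3 reads in each mouse, 10 reads over the 8 mice, so its calls rest on a level close to 0 and its fitted fold change is not given. Both pools together held 29, 41, 42 and 47 reads of Mmp8 at 12, 24, 48 and 72 h, and the ratio of their level to that of the mice was 11.7 (95% interval 5.52 to 26.8), 14.5 (7.15 to 32.5), 14.3 (7.05 to 31.9) and 16.5 (8.22 to 36.6), which covers counting error only. At 24 h 39 of the 41 reads were in the LKO pool. Il1b was not called at any time point over both genotypes. At 12 h it was called with the control pool alone against the control mice (1.92, adjusted p = 0.0366) and without LKO mouse 4 (1.32, adjusted p = 0.0335). The first of these sets 1 library against 4 mice, and its spread comes from the mice at 0 h alone, so that the pool is assumed to vary as they do. Leaving out a pool left 1 library at its time point. Without the control pool at 12 h 0 members were called at 12 h (S100a9 at 2.18 and Csf3r at 1.73), and without the LKO pool at 12 h S100a9 (1.35) and Csf3r (1.05) were not. With the forward stranded counts S100a9 (1.76, adjusted p = 0.0585) and Mmp8 (adjusted p = 0.141) were not called at 12 h, nor was Csf3r at 72 h (1.18, adjusted p = 0.0971). Without the LKO pool at 24 h 0 were called at 24 h (S100a8 at 1.25 and S100a9 at 1.31). Without the control pool at 48 h 0 were called at 48 h (S100a8 at 1.69 and S100a9 at 0.94), and without the control pool at 72 h 0 were called at 72 h (Csf3r at 1.04). S100a9 at 12 and 48 h and Csf3r at 72 h, whose adjusted p lay close to 0.05, also lost their calls without control mouse 1, 2 or 3 or LKO mouse 3 or 4, with log2 fold changes of 1.67 to 1.82 for S100a9 at 12 h, 1.81 to 1.98 at 48 h and 1.19 to 1.26 for Csf3r. S100a9 at 48 h lost its call as well without either pool of 12 h or 24 h (1.90 to 1.95), and Csf3r at 72 h without any of these 4 pools (1.29 to 1.30) or the LKO pool at 72 h (1.53).

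To see when the members differed between genotypes, each LKO pool was set against the control pool of the same time point, which has no replicate and no test. Members with 3 reads or fewer in both pools are left out of these counts, and a prior count of 2 was added before the fold was taken, for members and for all genes. The shares of all genes are over the 13855 that passed the filter, without this limit on reads. Ngp and Camp are not among these genes but were counted where a pool held more than 3 reads. At 24 h Camp (1 read in control, 8 in LKO) and Mmp8 (2 and 39) were counted through the LKO pool alone. The counts and shares thus rest on unlike sets of genes and are a description. At 12 h 3 of 7 members were lower and 4 higher in LKO, 1 at least 2-fold in each direction, where 12.4% of all genes were at least 2-fold lower and 9.08% at least 2-fold higher. At 24 h 9 of 9 were above the control pool, 5 by at least 2-fold, where 3.38% of all genes were. At 48 h 7 of 7 were below the control pool, 6 by at least 2-fold, where 9.78% of all genes were. At 72 h 7 of 8 were lower, 4 of them at least 2-fold, where 7.09% of all genes were, and Ngp was higher, with 4 reads against 0, where 6.44% were at least 2-fold higher. At 96 h 4 of 5 were lower, 2 of them at least 2-fold, where 4.71% of all genes were. The median difference of the members counted, LKO minus control on the log2 scale with a prior count of 2, was 0.07, 1.05, -1.99, -1.32 and -0.96 at the 5 time points, while that of all genes was at most 0.03 from 0. With all 10 members, those near 0 reads included, it was -0.32, 0.97, -1.35, -0.75 and -0.63, so that its sign at 12 h depends on which members are counted. Without the prior count Il1b at 12 h (a ratio of 0.495) and S100a8 at 96 h (0.475) also lay past 2-fold lower.

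At 24 h the level of S100a8 in LKO was 3.15 times that in control (95% interval 2.26 to 4.49, exact for counts), that of S100a9 2.09 times (1.63 to 2.71), that of Mmp9 2.64 times (1.34 to 5.55) and that of Mmp8 16.7 times (4.32 to 142). The intervals of the other members counted at 24 h included 1, with Csf3r at 1.27 (0.867 to 1.88), Cxcr2 at 1.82 (0.743 to 4.86), Il1b at 1.07 (0.631 to 1.82), Ngp at 1.60 (0.638 to 4.36) and Camp at 6.84 (0.917 to 303). At 48 h S100a8 stood at 0.342 of the control level (0.246 to 0.469), S100a9 at 0.237 (0.170 to 0.325), Csf3r at 0.462 (0.335 to 0.630), Mmp9 at 0.0359 (0.00425 to 0.135) and Il1b at 0.222 (0.109 to 0.417). At 72 h the ratio was 0.136 for S100a8 (0.0811 to 0.219), 0.242 for S100a9 (0.162 to 0.355), 0.245 for Mmp8 (0.116 to 0.483) and 0.228 for Mmp9 (0.118 to 0.415). At 96 h it was 0.112 for S100a9 (0.0459 to 0.236) and 0.303 for Csf3r (0.155 to 0.564). At 12 h S100a9 was at 1.09 (0.804 to 1.49), Cxcr2 at 0.137 (0.0348 to 0.395), Mmp9 at 2.62 (1.51 to 4.76) and Il1b at 0.495 (0.328 to 0.738). These intervals cover counting error only and leave out the spread between mice and between pools. The sum of the 10 members was 21.6, 14.6, 36.4, 30.7 and 10.5 CPM in the control pools and 21.1, 31.5, 11.1, 10.8 and 3.53 CPM in the LKO pools, against 4.25 to 13.0 CPM in the 8 mice at 0 h.

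**Figure D2:**
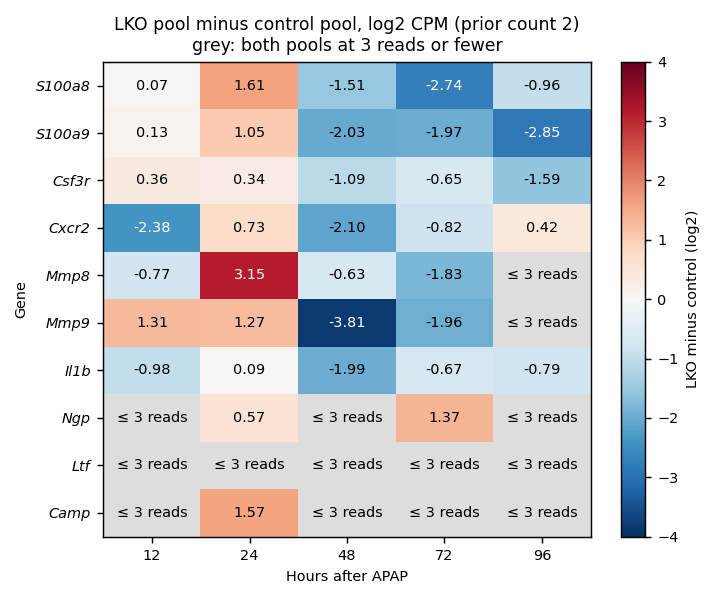
Difference of each member between the LKO and the control pool, in log2 CPM with a prior count of 2, by hours after APAP; red is higher and blue lower in LKO, and grey cells had 3 reads or fewer in both pools. The column at 24 h holds no blue cell, and S100a8 goes from 1.61 at 24 h to -1.51 at 48 h and -2.74 at 72 h.

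Over 12 to 96 h together, comparing both pools within each of the 5 times, which then served as replicates of a shared difference, 0 of 7 members tested were called between LKO and control by edgeR and 0 by DESeq2, and 1 of the 7 had an unadjusted p under 0.05. Of all 13659 genes, 0.512% were called and 17.4% had such a p. All 7 log2 fold changes were negative, from -1.11 to -0.17, with a median of -0.77 against -0.02 over all genes. S100a9 was at -1.11 (standard error 0.54, adjusted p = 0.321) and was lower in LKO at 3 of 5 time points. Il1b was at -0.92 (standard error 0.37, adjusted p = 0.236) and was lower at 4 of 5. S100a8 was at -0.77 (adjusted p = 0.521), Csf3r at -0.52 (adjusted p = 0.445), Cxcr2 at -0.996 (adjusted p = 0.454), Mmp9 at -0.75 (adjusted p = 0.695) and Mmp8 at -0.17 (adjusted p = 0.939). This fit assumes 1 difference for all time points. S100a8, S100a9 and Mmp9 were higher in LKO at 24 h and lower at 48 h, with counting intervals that excluded 1 at both times. The other members tested changed sign as well, but the interval of each included 1 at 24 h (Csf3r, Cxcr2 and Il1b) or 48 h (Mmp8). Without the 24 h pools S100a9 was at -1.69 (adjusted p = 0.191) and S100a8 at -1.39 (adjusted p = 0.240). With each pair of pools left out in turn, S100a9 ranged from -1.69 to -0.72, S100a8 from -1.39 to -0.21, Csf3r from -0.74 to -0.29, Cxcr2 from -1.49 to -0.54 and Il1b from -1.16 to -0.62, while Mmp8 and Mmp9 changed sign, and 0 members were called.

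The genotype difference after APAP was tested against that at 0 h over the 18 libraries. By edgeR 0 of 7 members and 0% of 13855 genes were called, DESeq2 called 0 members, and 1 member had an unadjusted p under 0.05, as had 9.43% of all genes. This was Il1b, with a difference of -1.70 (standard error 0.59, adjusted p = 0.443). The pools at 12, 24 and 48 h were also compared with those at 72 and 96 h, with genotype as a covariate. By edgeR 0 of 7 members were called, DESeq2 called 0, and 1.95% of 13316 genes were called, with 25.4% at an unadjusted p under 0.05. S100a9 had the only unadjusted p under 0.05 among the members, with a log2 difference of 1.39 (standard error 0.61, adjusted p = 0.184), higher in the earlier pools.

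At 0 h 4 members passed the filter in the LKO cohort (S100a9, Csf3r, Mmp9 and Il1b). Both edgeR and DESeq2 called 0 of the 4, none had an unadjusted p under 0.05, and 0% of 12426 genes were called by edgeR, with 2.83% at an unadjusted p under 0.05. S100a9 averaged 1.51 ± 1.35 CPM (SD, n = 4) over controls against 1.65 ± 0.983 CPM (SD, n = 4) over LKO mice, a log2 difference of 0.09 (standard error 0.62, adjusted p = 0.999). Csf3r was at 0.12 (standard error 0.44), Mmp9 at 0.28 (0.64) and Il1b at 0.79 (0.44), each with an adjusted p of 0.999. The values of both genotypes overlapped for all 4. Control mouse 4 held the highest S100a9 and Csf3r of the 8 mice, and without it S100a9 was at 0.97 and Csf3r at 0.72, each with an adjusted p of 0.817.

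In the HKO cohort S100a8 was at 0.241, 0.0673 and 0 CPM in the 3 control mice and at 1.60, 0.626 and 0.324 CPM in the 3 HKO mice. S100a9 was at 0, 0.202 and 0.0619 CPM in control and at 3.25, 0.438 and 0 CPM in HKO mice. Cxcr2 had 0 reads in the 3 control mice and 22, 3 and 0 reads in the HKO mice. HKO mouse 1 stood apart from the other 5, and this mouse also held 81.8 CPM of Cxcl1, a neutrophil chemoattractant, against 2.02 to 3.78 CPM in the others. The part of this mouse in the differences was not tested beyond leaving it out. Csf3r, Mmp9 and Il1b passed the filter, and edgeR called 0 of the 3, where 0.96% of 12397 genes were called. DESeq2 gave an adjusted p to Csf3r alone (0.145), and 2 of the 3 had an unadjusted p under 0.05 by edgeR, as had 12.9% of all genes. On the log2 scale Csf3r was 1.496 higher in HKO (standard error 0.56, adjusted p = 0.299), Mmp9 2.48 higher (0.79, adjusted p = 0.220) and Il1b 0.84 higher (0.42, adjusted p = 0.453). All HKO mice were higher than all controls for Mmp9 and Il1b, which held for 8.83% of all genes. Mmp9 was at 0.0603, 0.336 and 0 CPM in control and at 0.887, 0.626 and 0.713 CPM in HKO mice, and Il1b was at 0.543, 0.404 and 0.805 CPM in control and at 1.06, 1.13 and 0.972 CPM in HKO mice. Without HKO mouse 1, Csf3r was at 1.14 (adjusted p = 0.428), Mmp9 at 2.32 (adjusted p = 0.280) and Il1b at 0.83 (adjusted p = 0.517).

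**Figure D3:**
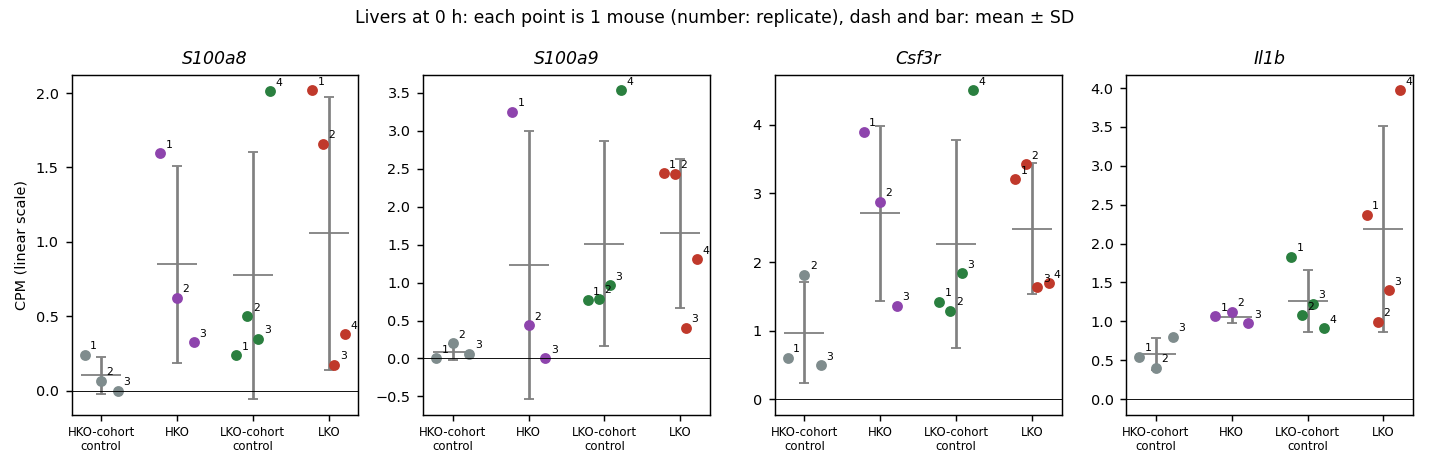
Levels of S100a8, S100a9, Csf3r and Il1b in CPM (linear axis) in single mice at 0 h of both cohorts, which were scaled separately; each point is 1 mouse with its replicate number, and the dash and bar are mean ± SD. Control mouse 4 of the LKO cohort (4.51 CPM of Csf3r) and HKO mouse 1 (3.90 CPM) lie above the rest of their groups.

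Across the 18 libraries of the LKO cohort, the log2 levels of S100a8 and S100a9 had a Pearson r of 0.90, those of S100a9 and Csf3r 0.85 and those of Csf3r and Mmp9 0.80. Among the 8 mice at 0 h the first pair had an r of 0.94, and among the 10 pools 0.81. Il1b was the member least like the others, with r from 0.08 to 0.42. The libraries share genotype and time, single mice and pools are mixed, and these values are descriptions. Of the genes outside the list, those most like S100a9 were Il1r2, the decoy receptor of interleukin-1 on neutrophils (r = 0.89), Retnlg (0.88) and Lcn2, which encodes an iron-scavenging granule protein that hepatocytes also make (0.85). Those most like S100a8 were Pf4, a platelet chemokine gene, and Alyref, an RNA export factor (both 0.87), and Slc39a13 (0.85). The genes nearest to Csf3r were Cerk, Mybl2 and Ucp2 (0.88, 0.87 and 0.84), and those nearest to Mmp8 were Rqcd1, Apaf1 and Ccr1 (0.89, 0.88 and 0.88). Cxcr2 was nearest to Cers5, Unc5b and Eps8 (0.82, 0.82 and 0.81), Mmp9 to Ube2s, Myom1 and Limk1 (0.82, 0.81 and 0.81), and Il1b to Efna1, Cyr61 and Adrbk1 (0.82, 0.79 and 0.78).

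**Figure D4:**
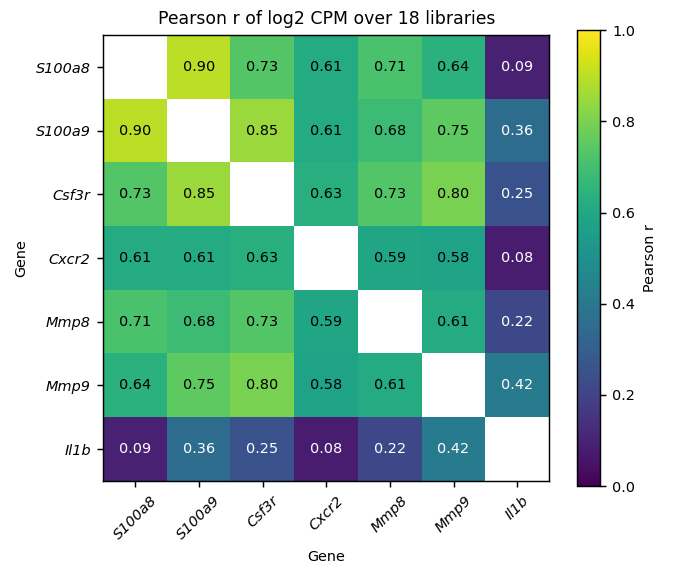
Pearson r between the 7 members that passed the filter, over the 18 libraries of the LKO cohort, from log2 CPM values (prior count 2). S100a8 and S100a9 share the highest value, 0.90, and the row of Il1b holds the lowest, down to 0.08.

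Other genes of neutrophils were taken from fixed lists. Of 8 other genes of later granules, 6 were tested, and 3, 4, 3 and 4 were called higher at 12, 24, 48 and 72 h. Of all genes 16.7%, 13.9%, 9.89% and 11% were called higher at these times. Lcn2 was at 237, 250, 489, 473 and 137 CPM in the control pools and at 320, 582, 257, 39.3 and 11.5 CPM in the LKO pools. Its highest pool was thus that at 48 h in control and at 24 h in LKO, as for S100a8 and S100a9. Chil3, a chitinase-like gene of neutrophils and macrophages, had log2 fold changes of 4.94 at 24 h (adjusted p = 4.11e-05) and 6.48 at 72 h (adjusted p = 8.86e-07). Itgam, the integrin chain CD11b of neutrophils and monocytes, was at 1.69 at 24 h (adjusted p = 0.00843) and 2.54 at 72 h (adjusted p = 0.000339). Cybb, an oxidase subunit of phagocytes, was called lower at 12 and 24 h (-1.35 and -1.03) and higher at 72 h (1.19). Only Lcn2, Itgam and Cybb of these passed the filter over the mice alone, and of these 3 genes 2, 2, 2 and 3 were called higher at 12, 24, 48 and 72 h. Chil3 had 0 to 12 reads in each mouse, so its fold changes rest on a low level. Over 12 to 96 h 0 of the 6 were called between LKO and control.

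Of 17 other genes of mature neutrophils in the files, 12 were tested, and 6, 7, 6 and 6 were called higher at 12, 24, 48 and 72 h. The shares of all genes called higher are those given for the later granules. Retnlg was at 2.56, 2.49, 3.52, 2.79 and 0.495 CPM in the control pools and at 2.52, 5.45, 0.397, 0.142 and 0.109 CPM in the LKO pools. It was called higher at 12 h (log2 fold change 2.88, adjusted p = 0.0148) and 24 h (3.70, adjusted p = 0.00338). Wfdc21, the gene of this list with the highest level, was not called at any time point. It was at 273, 486, 352, 709 and 1018 CPM in the control pools and at 235, 532, 922, 478 and 447 CPM in the LKO pools, so that its LKO pool was the higher one at 48 h, unlike S100a8 and S100a9. In the 4 control mice at 0 h this list summed to 381 to 730 CPM, and to 12.8 to 16.6 CPM without Wfdc21. Wfdc21 was thus high before APAP, and which cells its reads came from was not tested. Hdc, which encodes histidine decarboxylase, was called higher at 12 h (2.09, adjusted p = 5.62e-06) and lower at 96 h (-1.45, adjusted p = 0.0373), and Fpr1, a receptor for formyl peptides, was not called. Clec4d, a lectin receptor of neutrophils and macrophages, was called higher from 12 to 72 h, with log2 fold changes of 3.25 to 5.77. Retnlg, with 0 to 19 reads in each mouse, and Clec4d, with 0 to 7, did not pass the filter over the mice alone, and of the 4 genes of this list that did, 1, 0, 0 and 0 were called higher at 12, 24, 48 and 72 h. Between LKO and control 0 of the 12 were called over 12 to 96 h, with a median log2 fold change of -0.76. Among 5 primary granule genes Prtn3 alone was tested, and it was called higher at 24 h (5.47), 48 h (4.10) and 72 h (4.56), while Mpo, Elane and Ms4a3 stayed at or below 0.720 CPM. Prtn3 had 0 to 12 reads in each mouse at 0 h and did not pass the filter over the mice alone. It thus entered with the pools, where it was higher, and its fold changes rest on a low level. It overlaps Plppr3 on the other strand, so its reads cannot be assigned with certainty.

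Among 10 neutrophil chemoattractants and growth factors, 7 were tested between LKO and control over 12 to 96 h, and Cxcl1 and Cxcl2 were called lower in LKO. Cxcl1 was at 196, 231, 107, 106 and 37.6 CPM in the control pools and at 26.2, 129, 40.5, 25.8 and 17.6 CPM in the LKO pools, each LKO pool below its control pool (-1.65 on the log2 scale, standard error 0.27, adjusted p = 0.0382). Cxcl2 was at 46.1, 21.4, 9.38, 1.80 and 0.0708 CPM in the control pools and at 8.70, 5.97, 0.397, 0.285 and 0 CPM in the LKO pools (-2.68, 0.37, adjusted p = 0.0236). At 0 h Cxcl1 was at 9.82, 50.4, 43.6 and 16.2 CPM in control and at 8.01, 5.92, 12.3 and 10.6 CPM in LKO mice (log2 fold change -1.69, standard error 0.46, adjusted p = 0.999), values that overlapped and were not called. Without time point as a block neither was called (-1.52 and -2.37, each with an adjusted p of 0.764), and of all genes 0 were called. Cxcl1 also lost its call without the pools of 12, 24, 48 or 72 h (-1.85 to -1.34), and Cxcl2 without those of 12 or 72 h (-2.83 and -2.70). The chemokine genes did not all lie lower in the LKO pool at 24 h, where Cxcl3 was 2.88 times the control level (95% interval 1.93 to 4.42) and Cxcl5 2.46 times (1.06 to 6.35). At some other times these genes were lower in LKO, with 16 reads of Cxcl3 in the control pool against 0 in the LKO pool at 12 h and 84 against 0 at 48 h, and 9 reads of Cxcl5 against 0 at 48 h and 9 against 3 at 72 h. Csf1, a macrophage growth factor, was called higher at 12, 24, 48 and 72 h after APAP (log2 fold changes of 0.61 to 1.05) and was not called between genotypes.

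**Figure D5:**
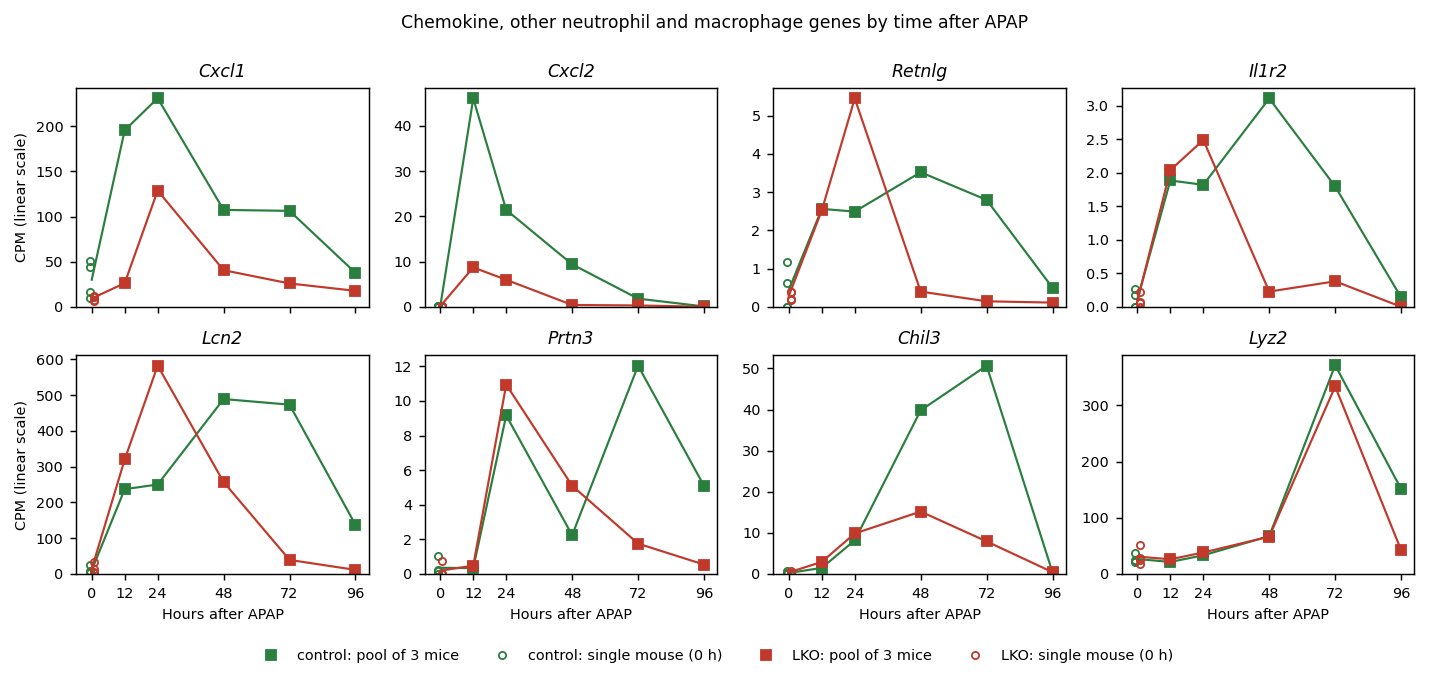
Levels in CPM (linear axis, a scale of its own for each panel) of chemokine genes (Cxcl1, Cxcl2), other neutrophil genes (Retnlg, Il1r2, Lcn2, Prtn3, Chil3) and Lyz2, expressed by macrophages and neutrophils, against hours after APAP, drawn as in the plot of the members. Retnlg and Lcn2 are highest at 24 h in LKO and at 48 h in control, and Lyz2 is highest at 72 h in both genotypes.

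Markers of the other cells of the liver were followed in the same libraries. Of 12 genes of monocytes and recruited macrophages, all tested, 9 passed the filter over the mice alone, and 2, 3, 7, 6 and 2 of these 9 were called higher at 12, 24, 48, 72 and 96 h, where the shares of all genes called higher were those given with the members. With the genes that entered only with the pools the counts were 4, 6, 10, 9 and 4 of 12. Between LKO and control over 12 to 96 h 0 were called. Adgre1, the F4/80 gene, was called lower at 24 h (-1.30, adjusted p = 0.0291). Fn1, the fibronectin gene, was called higher at 12 h (0.82, adjusted p = 0.00571). In the 8 mice at 0 h this list summed to 1281 to 1659 CPM, and to 64.3 to 133 CPM without Fn1. Fn1 was thus high before APAP, and which cells its reads came from was not tested. Lyz2, the lysozyme gene of macrophages and neutrophils, was at 21.4, 33.3, 67.4, 372 and 151 CPM in the control pools and at 26.2, 38.3, 66.4, 334 and 42.5 CPM in the LKO pools, highest at 72 h in both. Cd68, a macrophage gene, was called higher from 12 to 72 h, with log2 fold changes of 2.01 to 2.75. Of 7 genes of Kupffer cells, the resident liver macrophages, 3, 3, 1, 0 and 0 were called lower and 0, 1, 1, 2 and 0 higher at 12, 24, 48, 72 and 96 h, and Clec4f was called lower at 12 h (-1.07) and 24 h (-1.28). For this list and those that follow, the shares of all genes called lower and higher are those given with the members. C6, which encodes a complement component, was called lower at 12, 24 and 48 h (-1.51, -1.86 and -1.82), and Cd5l higher at 72 h (1.97). Of the lymphocyte list 0 of 9 tested genes were called higher at any time point and 1 was called lower, at 12 h, which was not among the 6 that passed the filter over the mice alone. Of 7 eosinophil and mast cell genes 1 was tested, Ccr3, which was called lower at 12 h (-2.67), and Epx and Prg2 were at or near 0. Of 8 adhesion genes of vessel wall and leukocytes, 7 passed the filter over the mice alone, and 3, 2, 2, 4 and 0 of these were called higher at 12, 24, 48, 72 and 96 h, beside 1 further gene at 12 h that entered only with the pools. Vcam1 was called higher at 72 h (1.78, adjusted p = 0.00232), and Icam1 was called higher from 12 to 72 h (0.73 to 0.97) and Itgb2, the CD18 chain, at 12, 48 and 72 h (0.87, 1.24 and 2.39). In the interleukin-1 list 11 of 12 were tested, with 3, 2, 1, 4 and 0 called higher and 2, 1, 0, 0 and 0 called lower at the 5 time points, among the latter Il1rap, a subunit of the interleukin-1 receptor, at 24 h (-0.94, adjusted p = 0.0164). Of 7 hepatocyte genes 1, 2, 1, 0 and 0 were called lower and 0, 1, 0, 0 and 0 higher, and the 7 summed to 52757 to 119964 CPM in the 8 mice of the LKO cohort at 0 h and to 65945 to 131299 CPM in the pools. Of 9 genes of red cells and platelets 3 were tested, among them Pf4, with 0 to 13 reads in each mouse at 0 h, called higher from 12 to 72 h (2.32 to 4.07), and Alas2, called lower (-1.85 to -0.78). Pf4 did not pass the filter over the mice alone, and of the 2 genes that did, 0 were called higher at any time point. The part of monocytes, macrophages and platelets in the levels of members that these cells also express was not tested.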

How the data were processed

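RNA-seq libraries were made from whole liver. After trimming (Trimmomatic) and alignment (STAR, mm10), the authors deposited the read counts per gene that STAR writes, without normalization. The annotation version is not given in the sources used here. The column that disregards strand was used, and entries that name no gene (18.7% to 39.9% of all counts of a library, these entries included) were left out. They were analysed with edgeR 4.0.16, which uses limma 3.58.1, under R 4.3.3: genes kept by filterByExpr, scaled by TMM, glmQLFit and glmQLFTest, 2-sided, Benjamini-Hochberg adjustment over all genes tested, and a call where the adjusted p was under 0.05 and the fold change 1.5 or more. DESeq2 1.42.0, also used by the authors, was an alternative. The fits were tested on simulated data. CPM used TMM factors within each cohort (18 and 6 libraries). Log2 differences of pools used a prior count of 2, and intervals of ratios are exact for counts at 95%. Coordinates are from GENCODE on GRCm38, to which 95.8% of symbols were matched.

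All 10 members were named. Of other lists, counts were given and genes were named from among the 4 with the highest mean CPM over the 18 libraries of the LKO cohort, with E2f7, E2f8, Mpo, Elane and Retnlg, and the 3 genes most correlated with each member. Cxcl1 in single HKO-cohort mice, Adgre1, Cxcl5, Il1r2 in the plot, list members named for being near 0 and the alternatives for Cxcl1 and Cxcl2 were added after their values were seen. The members and lists were chosen with earlier results of these data known. The p-values measure the spread between these libraries, which mix single mice and pools. Replicate numbers at 0 h were not taken to pair the mice. With 3 or 4 mice per group, the check of this given below cannot exclude a pairing. Alternatives were scaling, filters, the fold limit, a stranded column, the block, 1 genotype alone, DESeq2, and leaving out each library.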

Additional observations from a re-analysis of the deposited data

Results flagged for a closer look

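In each of 20 sets of 4 mice (10 members in control and LKO mice at 0 h), the highest or lowest mouse was compared with the others by its gap over the range, against the 95% critical value of Dixon's test, which chance passes in about 1 in 20 groups. In 5 of the 20 sets a mouse lay apart. In 3 of these it was control mouse 4, with 2.01 CPM of S100a8 (next highest 0.502 CPM), 3.54 CPM of S100a9 (next highest 0.962 CPM) and 4.51 CPM of Csf3r (next highest 1.84 CPM). LKO mouse 1 held 0.697 CPM of Ltf, 10 reads, where the next mouse held 0.0583 CPM. Control mouse 1 held 0.118 CPM of Camp, 2 reads, where the other 3 held 0, so that any read passes and this set carries no information. The other 4 sets are those to be read against 1 in 20. The 3 sets of control mouse 4 are not independent, since the 3 genes vary together over the mice.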

How the results depend on the processing

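The counts of members called between genotypes, at 96 h, for the difference of the genotype effects and for the earlier against the later pools were 0 under each alternative and with each library or pair of pools left out. The counts after APAP were less stable. With at least 10 counts in every library, 1, 0, 0 and 1 members were called at 12, 24, 48 and 72 h in place of 3, 3, 3 and 2, since fewer members pass that filter. With the forward stranded column 2 were called at 12 h, Mmp9 being added, and 1 at 72 h. With the control pool alone against the control mice 0 were called at 24 h, and with the LKO pool alone against the LKO mice 0 at 12 h, 0 at 48 h and 0 at 72 h, where S100a8 was at -0.0663. With 1 library left out, 0 to 4 members were called at 12 h, 0 to 3 at 24 h, 0 to 4 at 48 h and 0 to 3 at 72 h. DESeq2 did not call S100a9 at 12 h (adjusted p = 0.0761) or 48 h (adjusted p = 0.0795). Between LKO and control at 0 h, with 1 mouse left out, S100a9 ranged from -0.17 to 0.97, Csf3r from -0.0797 to 0.72 and Mmp9 from -0.12 to 0.95, and over 12 to 96 h, with 1 pair of pools left out, Mmp8 ranged from -1.04 to 0.51 and Mmp9 from -1.54 to 0.14. Among 32 further values of members with an unadjusted p above 0.05, 13 changed sign under an alternative and 3 were called under one, namely Il1b at 12 h and, with the control pool alone, Mmp9 at 48 h (2.61, adjusted p = 0.0400) and 72 h (2.59, adjusted p = 0.0453), where 1 pool is assumed to vary like the mice at 0 h. Taking the replicate number as a block changed no call of a member at 0 h (0 in LKO and 0 in HKO mice), and moved the calls over all genes in the HKO cohort from 119 to 264. Same-numbered mice of the LKO cohort had correlations of -0.34 to 0.19, with their own number the best match in 0 of 4, and those of the HKO cohort of 0.20, -0.03 and 0.10, with their own number the best match in 2 of 3. Not every pair was over 0.1, so the numbers were not taken to pair the mice. Of all genes, 0 were called in place of 70 between genotypes over 12 to 96 h without time point as a block and 8 to 172 with 1 pair of pools left out. DESeq2 called 608 in that comparison, 331 in place of 119 in the HKO cohort, 338 in place of 64 at 96 h and 1627 in place of 259 between earlier and later pools. Of 100 changes of members from 0 h in a pool, 16 moved by more than the spread of the mice with a prior count of 0.5. Among changes of at least 2-fold 0 changed sign. Smaller changes were not counted for this, and some did change sign. Examples are S100a8 in the LKO pool at 96 h (-0.0685 to 0.00212) and Ltf in the control pool at 12 h (-0.0188 to 0.342). At this depth a member needs more than 3 reads to be told from 0.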
